A study of Homo sapiens with 3 samples.

Results

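The genes described here are 10 components of the NF-kB signalling pathway: the 5 subunit genes NFKB1, NFKB2, REL, RELA and RELB, the inhibitor genes NFKBIA and NFKBIE, the upstream regulators TRAF3 and MAP3K14, and the deubiquitinase gene TNFAIP3. They were taken by name, and every probe set that carries 1 of these symbols alone was used. This gave 20 of the 41091 probe sets with a single gene symbol, and 10 of 19775 genes. The cells were KMS11, an established human multiple myeloma line with the t(4;14) translocation, which drives expression of MMSET, now named NSD2, from the immunoglobulin heavy chain locus. MMSET encodes a histone methyltransferase. Each of the 3 groups was 1 lentivirally infected sample on 1 array, collected at 48 h: the control hairpin shLuc against luciferase, and the MMSET hairpins shMMSET#2 and shMMSET#4. All groups were infected in the presence of polybrene. A single cell line without replicate samples limits the data to these 3 arrays, so differences are given by size, with no p-value.

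NF-kB transcription factors are dimers of Rel family subunits that are held inactive in the cytoplasm by inhibitor proteins of the IkB family. In the canonical arm, an IkB kinase complex marks the inhibitors for degradation and frees dimers such as RELA with p50, the product of NFKB1. In the non-canonical arm, TRAF3 keeps the kinase NIK, encoded by MAP3K14, at a low level, and stabilised NIK leads to processing of p100, the product of NFKB2, into p52, which pairs with RELB. Several inhibitors, among them NFKBIA and TNFAIP3, are themselves NF-kB targets and act as feedback brakes. Lesions that raise NF-kB activity, such as loss of TRAF3 or gain of MAP3K14, recur in multiple myeloma.

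Promoter sequence is shown for the subunit gene and the brake gene that were lower with both MMSET hairpins, REL and TNFAIP3, and for NFKBIA, a feedback inhibitor gene whose brightest probe set was level. The windows are the 250 bases before the annotated start in RefSeq, build GRCh38.p14, written 5′ to 3′ on the gene's strand. Capitals mark matches to GGGNNNTTCC, a form of the kappaB element that NF-kB dimers bind, searched on both strands with overlapping matches allowed.
REL, chr2:60881324-60881573, plus strand: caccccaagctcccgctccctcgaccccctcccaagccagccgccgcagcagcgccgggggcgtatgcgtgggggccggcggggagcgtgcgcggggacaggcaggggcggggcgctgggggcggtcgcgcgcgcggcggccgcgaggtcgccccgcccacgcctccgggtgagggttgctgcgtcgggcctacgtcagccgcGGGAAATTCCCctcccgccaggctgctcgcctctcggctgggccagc
TNFAIP3, chr6:137867009-137867258, plus strand: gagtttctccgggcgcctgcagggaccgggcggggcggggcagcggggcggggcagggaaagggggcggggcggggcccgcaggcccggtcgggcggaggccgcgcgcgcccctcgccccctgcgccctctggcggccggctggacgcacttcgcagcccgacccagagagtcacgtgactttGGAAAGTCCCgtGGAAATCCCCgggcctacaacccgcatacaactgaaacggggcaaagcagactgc
NFKBIA, chr14:35404750-35404999, minus strand: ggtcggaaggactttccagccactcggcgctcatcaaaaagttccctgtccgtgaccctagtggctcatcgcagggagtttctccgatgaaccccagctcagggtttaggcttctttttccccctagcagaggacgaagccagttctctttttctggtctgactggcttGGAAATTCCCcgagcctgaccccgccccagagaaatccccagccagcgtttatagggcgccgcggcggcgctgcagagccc
In REL the 2 matches overlap on opposite strands and lie 47 to 37 bases before the start. TNFAIP3 has 2 matches on the opposite strand, 67 to 58 and 55 to 46 bases before the start, and NFKBIA has 1, 81 to 72 bases before it. Of the members, 8 had windows in the RefSeq table, 12 windows in all, while RELB and NFKBIE were not matched. At least 1 match was found in 7 of the 12 windows, in 6 of the 8 genes (NFKB1, NFKB2, REL, NFKBIA, TRAF3 and TNFAIP3) and in none of the windows of RELA and MAP3K14, against 5.67% of all 35116 windows of this length. Genes that hold the motif therefore include members lower with both hairpins and members that were level, and a match describes these letters only.

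The arrays differed in general features. Median signals on the shLuc, shMMSET#2 and shMMSET#4 arrays were 77.4, 62.0 and 59.5, and the log2 excess of the 3′ over the 5′ control probe set of ACTB was 1.70, 1.14 and 1.14. For GAPDH the same excess was small on all arrays, at 0.042, 0.103 and 0.0019, so the ACTB difference was not shared by this control. Whether the medians or the ACTB values bear on the differences below was not tested. The 6 NSD2 probe sets check the labels. Counting any decrease, all lay below shLuc with shMMSET#2 (median log2 ratio -1.33) and 5 did with shMMSET#4 (median -0.48). The brightest was 1.46-fold and 1.38-fold lower, so NSD2 falls short of the 1.5-fold rule used below with both hairpins. The dimmest was 5.45-fold and 3.07-fold lower, while the next dimmest was 1.45-fold lower with shMMSET#2 and 1.04-fold higher with shMMSET#4. Scaling all arrays to the same median signal left 4 of 6 below shLuc by any amount with shMMSET#4, with a median of -0.10. All 12 plasma cell and myeloma markers were above the array's median signal on every array. Of the 4 T cell and 4 monocyte markers, at most 2 of either list were above it on any array, and their summed signals ranged from 134 to 259.5 and from 104 to 222, against 137368, 75488 and 130419 for the plasma cell list with shLuc, shMMSET#2 and shMMSET#4. Of those 12 markers, 7 were at least 1.5-fold lower with shMMSET#2, among them SLAMF7 (5.85-fold), MAF (2.92-fold), IRF4 (2.86-fold) and PRDM1 (2.29-fold), while with shMMSET#4 1 was lower and 2 were higher. Of the 4 epithelial markers, EPCAM had signals of 8099, 4391 and 10651 in the same order, CDH1 had 594.5, 50.04 and 340, KRT8 had 99.8, 118 and 144, and KRT19 was below the signal floor of 41.2 on all 3 arrays. The 4 fibroblast markers summed to 285, 375 and 229, with PDGFRB below the floor on all 3 arrays, and HBB, the 1 erythroid marker measured, had signals of 307, 196 and 237.

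Signals are MAS5 values on a linear scale, and each gene is represented by its brightest probe set unless another is named. A gene was called lower or higher with a hairpin when its signal, floored at 41.2, was at least 1.5-fold from shLuc. All 10 members passed the filter for dim genes. Both MMSET hairpins share the single shLuc array, so each ratio is given on its own. With no replicates, the spread given is the fold between the MMSET hairpin arrays, in which any difference in hairpin action is included: 95% of genes lay within 2.37-fold of each other, and within 1.85-fold in the brightest decile.

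REL and TNFAIP3 were at least 1.5-fold lower with both MMSET hairpins, NFKBIE was at least 1.5-fold higher with both, and the other 7 members were neither. The 2 lower genes of 10 stand beside 11.9% of the 13296 tested genes that were lower with both, and the 1 higher gene beside 8.60% that were so. For shMMSET#2 alone, 3 members were lower (TNFAIP3, REL and MAP3K14), beside 22.5% of tested genes, and 1 was higher (NFKBIE), beside 16.2%. The 7 plasma cell markers were lower on the same array, and their part in these differences was not tested. With shMMSET#4, 4 were lower (TNFAIP3, REL, RELA and NFKB2), beside 20.6%, and 2 were higher (TRAF3 and NFKBIE), beside 17.3%. None of these counts differed by more than 2 genes from what the background share of 10 genes comes to, and no member reached 2-fold with both hairpins. Over the 10 genes the median log2 ratio was -0.03 with shMMSET#2 and -0.18 with shMMSET#4, against -0.04 and -0.02 over all tested genes. By probe set, 18 of the 20 were above the array's median on at least 1 array. Of these, 4 were lower with both hairpins, beside 13.2% of 25458 such probe sets, and 2 were higher with both, beside 8.17%. These counts are a description only: the dimmest REL probe set passed through the shLuc array alone, and the dimmer of the NFKB2 probe sets that passed did so through the hairpin arrays alone, so each passed where it was high.

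**Figure D1:**
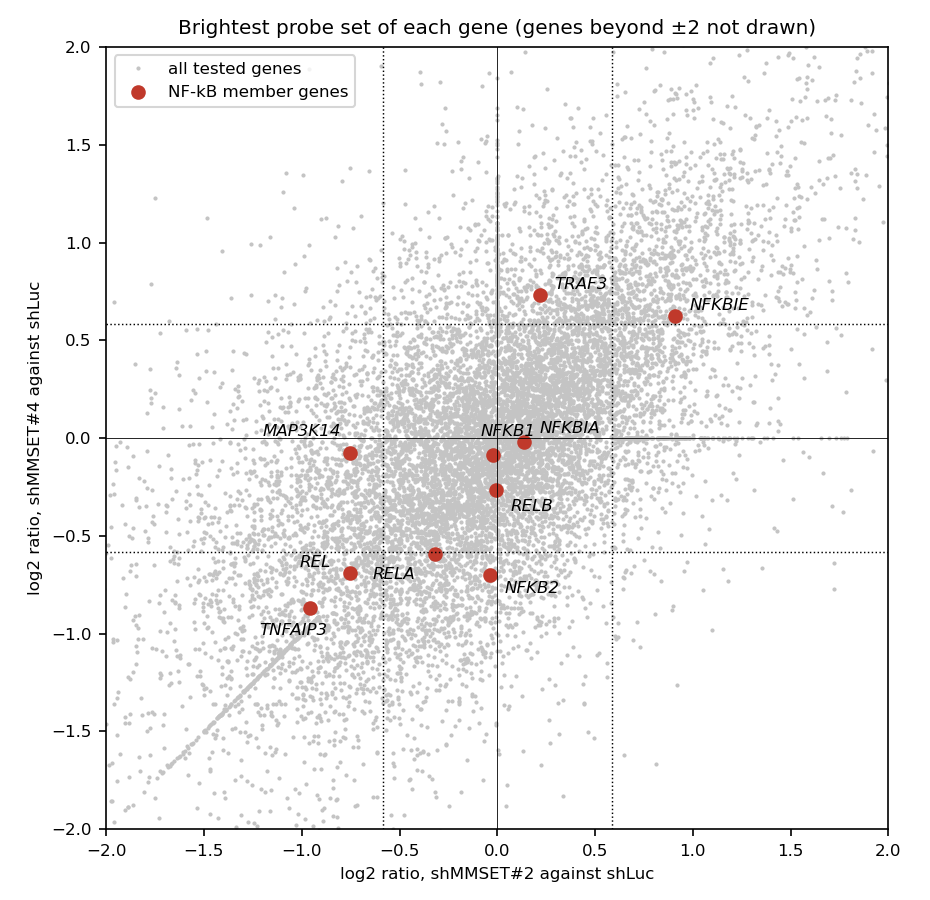
Log2 ratio to shLuc with shMMSET#2 (horizontal axis) and with shMMSET#4 (vertical axis) for each tested gene, by its brightest probe set, with 1 array per group. Dotted lines mark 1.5-fold, and genes beyond 2 log2 units are not drawn. REL and TNFAIP3 lie at lower left and NFKBIE in the upper right, all inside the cloud of tested genes, and both axes share the shLuc array.

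REL, which encodes the subunit c-Rel that is prominent in lymphoid cells, was the 1 subunit gene called lower with both hairpins. Its brightest probe set read 1236 in the control, 733 for shMMSET#2 and 766 for shMMSET#4, that is, 1.69-fold and 1.61-fold lower. A second one read 1214, 748 and 597, or 1.62-fold and 2.03-fold lower. The other 3 were lower too, by smaller amounts on 2 of them. The third in brightness read 488, 454 and 383, and the fourth 424, 356 and 286. On the dimmest the signal was 86.5 with shLuc and 46.7 with shMMSET#2, and with shMMSET#4 it was below the floor, so the gene was 1.85-fold and at least 2.10-fold lower there. All 5 REL probe sets were thus lower with each hairpin, 3 of them by at least 1.5-fold with both. These probe sets read 1 gene in the same 3 RNA samples and are not replicates.

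NFKB1, which encodes p105 and its product p50, was level across the arrays. Its single probe set read 1069 with shLuc, 1053 with shMMSET#2 and 1007 with shMMSET#4, or 1.02-fold and 1.06-fold lower. RELB, the partner of p52 in the non-canonical arm, was level with shMMSET#2 and 1.20-fold lower with shMMSET#4, with signals of 609, 605 and 507. Neither gene was called with either hairpin.

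RELA, which encodes p65, the main activating subunit of the canonical arm, was lower with shMMSET#4 in the scaling as deposited. Its brightest probe set read 1194 with shLuc, 957 with shMMSET#2 and 792 with shMMSET#4, or 1.25-fold and 1.51-fold lower, the latter just past the threshold. The other read 213, 212 and 95.5, so it was level with shMMSET#2 and 2.23-fold lower with shMMSET#4. Between the hairpin arrays, the shMMSET#4 signal was the lower one for both, by 1.21-fold and 2.22-fold.

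For NFKB2, which encodes p100, the precursor of p52, the probe sets went in different directions. The brightest read 976 in the control, 950 for shMMSET#2 and 601 for shMMSET#4, level and then 1.62-fold lower. A dim one had signals of 54.4, 117 and 100.1, or 2.16-fold and 1.84-fold higher. The third was below the floor on all 3 arrays and gives no ratio. The direction for NFKB2 thus depends on the probe set, and its call as lower with shMMSET#4 rests on the brightest one.

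**Figure D2:**
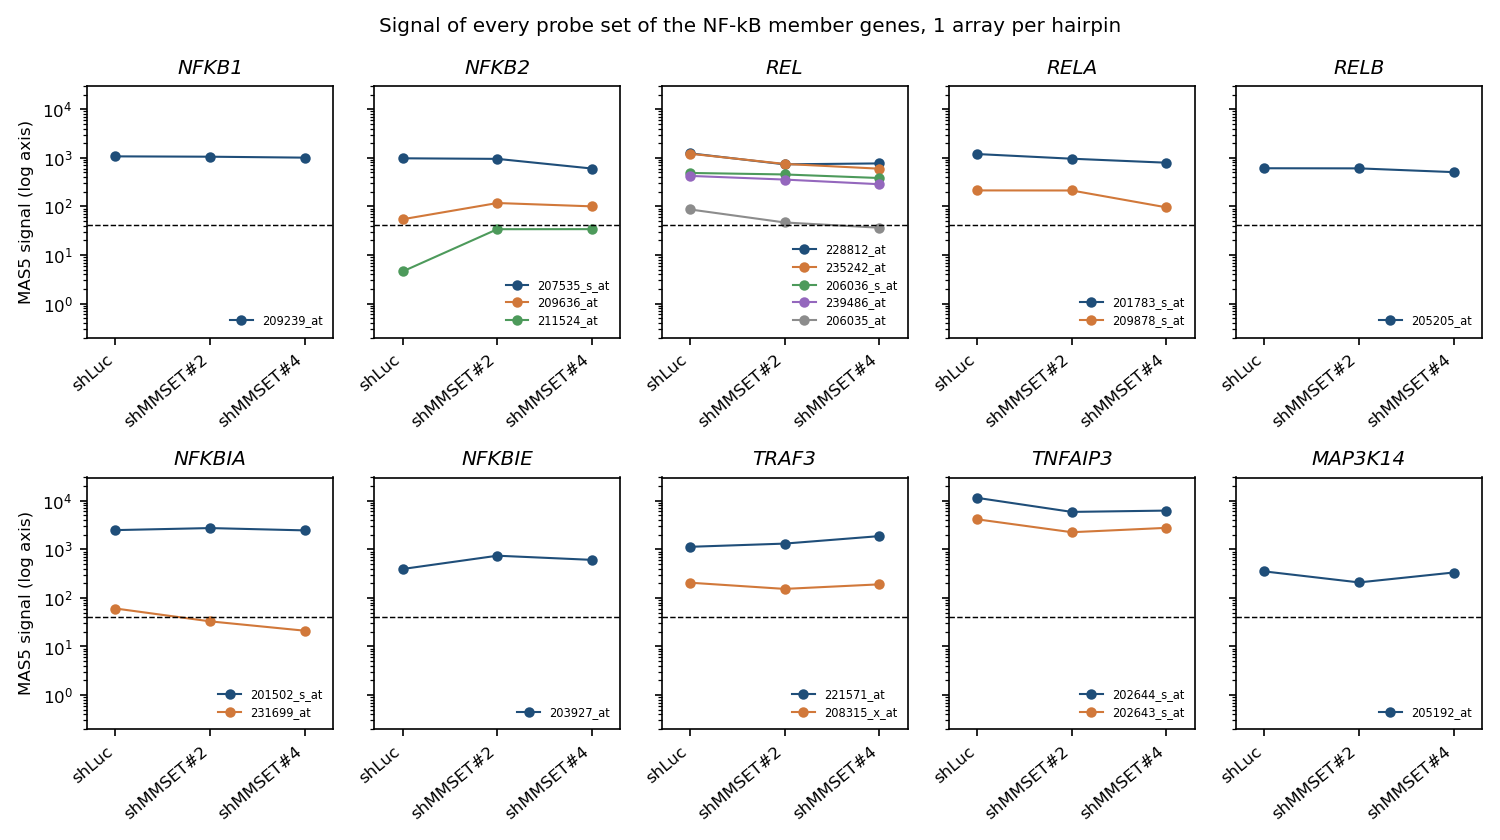
MAS5 signal (log axis) of each of the 20 member probe sets on the shLuc, shMMSET#2 and shMMSET#4 arrays, 1 panel per gene, with lines joining the values of 1 probe set and the dashed line at the floor of 41.2. All REL and TNFAIP3 lines go down from shLuc to both MMSET hairpins, NFKBIE goes up, and the lines of NFKB2 and TRAF3 diverge.

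Among the inhibitor genes, NFKBIE was higher with both hairpins and NFKBIA was level. NFKBIE, which encodes IkB-epsilon, an inhibitor that retains c-Rel and RELA dimers in the cytoplasm, read 393 with shLuc, 738 with shMMSET#2 and 605 with shMMSET#4 on its single probe set. It was 1.88-fold and 1.54-fold higher. NFKBIA, which encodes the main feedback inhibitor IkB-alpha, read 2481, 2732 and 2448, or 1.10-fold higher and 1.01-fold lower. A dim NFKBIA probe set read 60.4 with shLuc and was below the floor with both hairpins, at least 1.47-fold lower.

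TNFAIP3, which encodes the ubiquitin-editing enzyme A20 that shuts off the canonical arm, had the highest fold of the members with each hairpin on the brightest probe sets. The brighter probe set read 11431 in the control, 5877 for shMMSET#2 and 6254 for shMMSET#4, or 1.95-fold and 1.83-fold lower. The second read 4136, 2245 and 2760, with log2 ratios of -0.88 and -0.58, the last value just short of 1.5-fold. Both probe sets were lower on both hairpin arrays. With shMMSET#2 the fold on the brightest probe set exceeded the 1.85-fold that held 95% of genes of its signal decile between the hairpin arrays, and with shMMSET#4 it did not. With all arrays scaled to the same median signal, the TNFAIP3 fold with shMMSET#2 was 1.56. For the other 9 members both folds to shLuc were inside the corresponding spread, for example 2.29-fold for REL and NFKBIE. That spread leaves out the shLuc array, so it does not measure how far a ratio to shLuc varies.

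TRAF3, the adaptor that restrains NIK, was higher with shMMSET#4 on its brightest probe set. Its signals were 1124 with shLuc, 1309 with shMMSET#2 and 1865 with shMMSET#4, or 1.16-fold and 1.66-fold higher. The other probe set read 205, 153 and 190, or 1.34-fold and 1.08-fold lower, so the direction was not shared between them. MAP3K14, which encodes NIK, was lower with shMMSET#2 and level with shMMSET#4: its probe set read 350.6, 208 and 333, or 1.69-fold and 1.05-fold lower.

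The hairpins differed most on the brightest probe sets for MAP3K14, NFKB2 and TRAF3, with log2 ratios of shMMSET#4 to shMMSET#2 of 0.68, -0.66 and 0.51. In the signal deciles of these genes, 95% of genes lay within 2.64-fold, 2.29-fold and 2.16-fold between the hairpin arrays, so none of the 3 differences stood outside that spread. The pair of ratios of a called member was also common: 472 other tested genes lay within 0.25 log2 units of REL in the plane of both ratios (Euclidean distance), 379 of TNFAIP3 and 393 of NFKBIE.

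Scaling of the arrays decided part of these calls. When every array was scaled to the same median signal, the median over the tested genes moved on the log2 scale from -0.04 to 0.25 for shMMSET#2 and from -0.02 to 0.34 for shMMSET#4. Under that scaling the log2 ratios of REL were -0.43 and -0.31 and those of TNFAIP3 -0.64 and -0.49, so neither was called with both hairpins, while NFKBIE was 2.34-fold and 2.01-fold higher. RELA and NFKB2 were then 1.16-fold and 1.25-fold lower with shMMSET#4, so no member stayed called as lower with that hairpin. With shMMSET#2, TNFAIP3 alone stayed called as lower. NFKB1, 1.02-fold and 1.06-fold lower as deposited, became 1.23-fold higher with each hairpin, RELB 1.24-fold and 1.08-fold higher, and MAP3K14 1.35-fold lower and 1.24-fold higher. That scaling adds 1 constant per array, so ratios taken relative to the median of the tested genes are fixed by construction apart from the floor, and they do not bear on the lost calls. As deposited, these relative log2 ratios were -0.92 and -0.85 for TNFAIP3, -0.71 and -0.67 for REL and 0.95 and 0.65 for NFKBIE. Quantile normalization kept REL, TNFAIP3 and NFKBIE called with both hairpins.

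**Figure D3:**
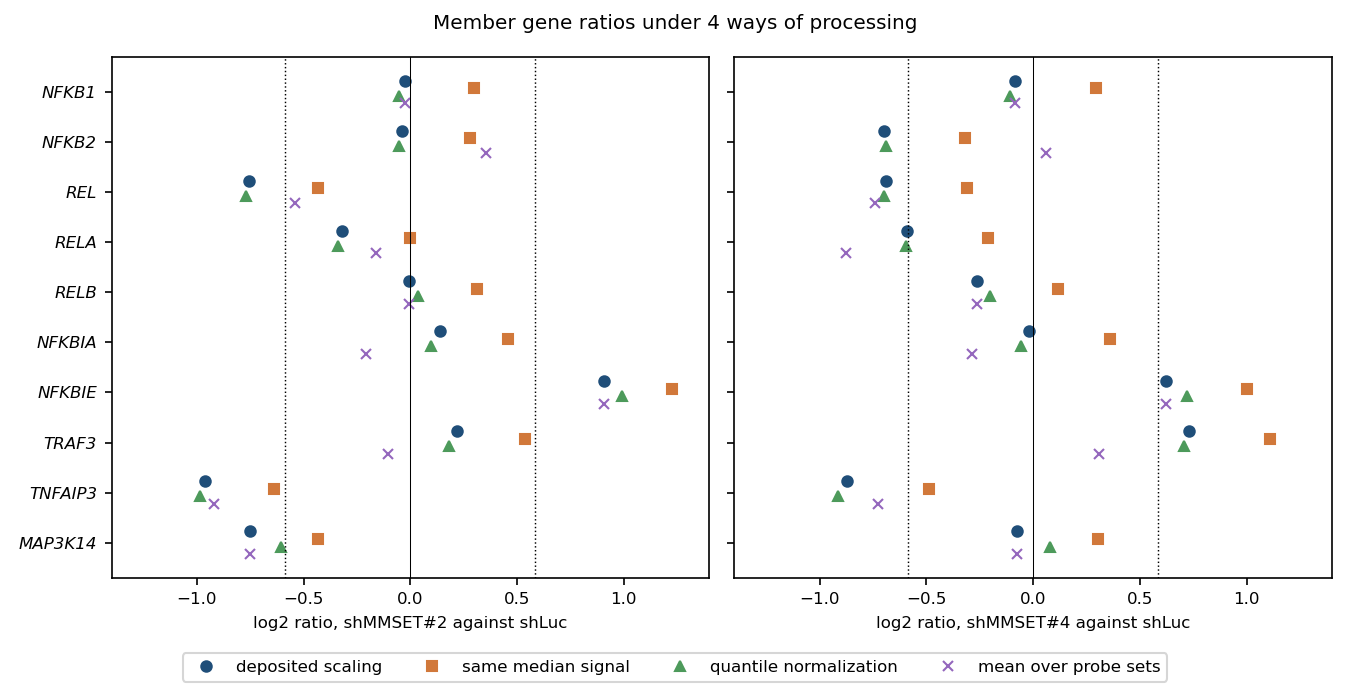
Log2 ratio to shLuc of each member gene with shMMSET#2 (left) and shMMSET#4 (right) as deposited, after scaling to the same median signal, after quantile normalization and as the mean over all probe sets. Dotted lines mark 1.5-fold. The same-median values lie to the right of the deposited ones for all 10 genes, and the NFKB2 mean lies right of 0 with both hairpins.

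The wider pathway was described with lists of receptors, adaptors, kinases, inhibitors and target genes, 91 genes apart from the members. Of these, 83 had a named probe set and 69 were tested. With both hairpins 7 were at least 1.5-fold lower, 6 were higher and 56 were neither, that is, shares close to the background of 11.9% and 8.60%. The median log2 ratio of the 69 genes was 0.03 with shMMSET#2 and -0.01 with shMMSET#4. When the arrays had the same median signal, 1 gene was lower, beside 5.28% of all tested genes, and 14 were higher, beside 19.7%.

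**Figure D4:**
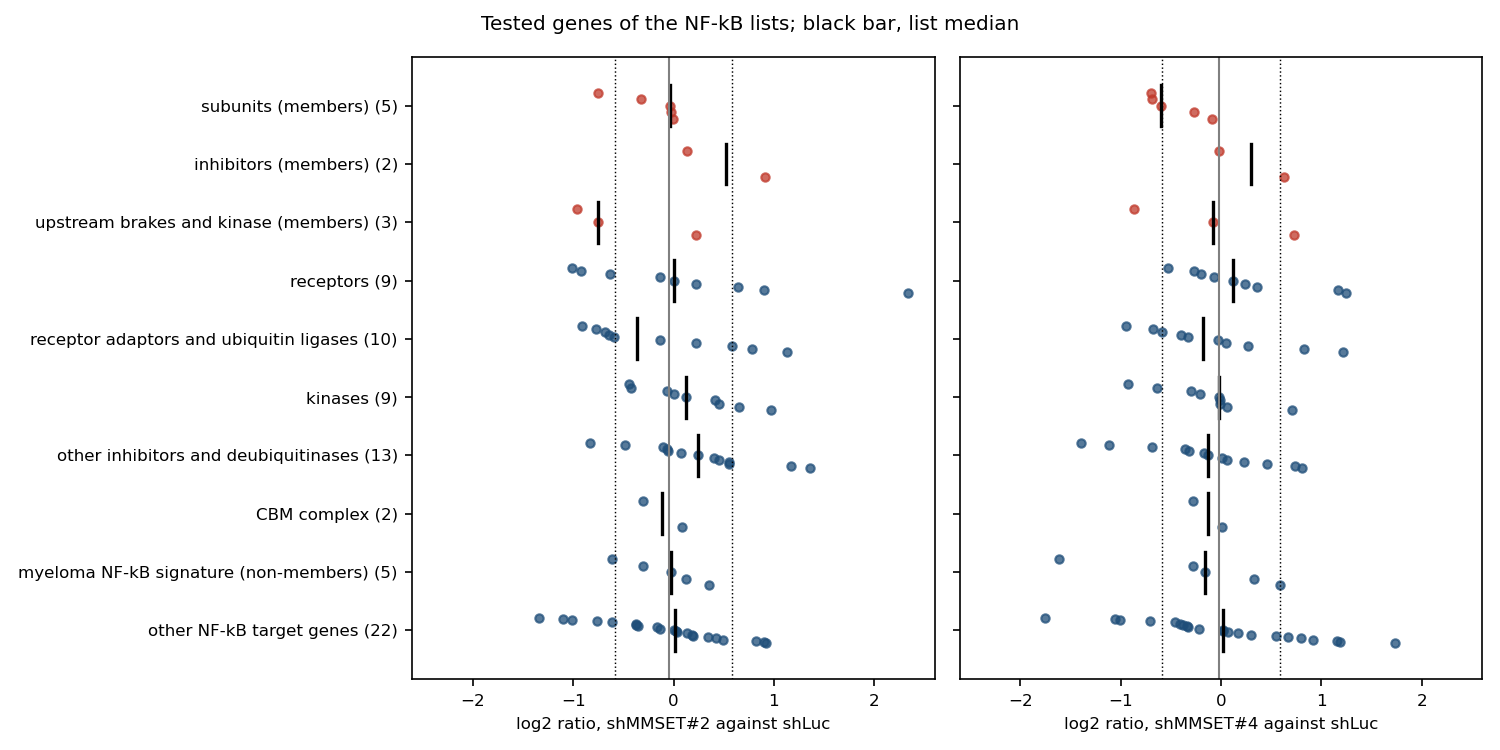
Log2 ratio to shLuc of the tested genes of each list, with shMMSET#2 (left) and shMMSET#4 (right). Points are genes by their brightest probe set, red for the members, black bars are list medians, the grey line is the median of all tested genes, dotted lines mark 1.5-fold, and the number of tested genes follows the list name. The genes of the pathway lists fall on both sides of the grey line.

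Among 10 tested adaptors and ubiquitin ligases, 3 were lower with both hairpins, beside 11.9% of tested genes, and 2 were higher, beside 8.60%. The same shares stand beside the counts of each list below. TRADD, which links TNF receptor 1 to downstream signalling, read 577 with shLuc, 1258 with shMMSET#2 and 1023 with shMMSET#4, or 2.18-fold and 1.78-fold higher, and a second probe set had log2 ratios of 0.97 and 0.86. SHARPIN, a subunit of the linear ubiquitin ligase complex, was 1.72-fold and 2.33-fold higher. TRAF6, the ubiquitin ligase downstream of interleukin 1 and Toll-like receptors, was 1.56-fold and 1.92-fold lower, with log2 ratios of 0.16 and -0.47 on a dimmer probe set. TRAF1, an adaptor and NF-kB target, had log2 ratios of -0.68 and -0.67 at low signals of 145, 90.3 and 90.8. RNF31, the catalytic subunit of the linear ubiquitin ligase complex, was the third lower gene, with log2 ratios of -0.91 and -0.59. Its signals were low, at 146, 77.8 and 97.3, and its other probe set was below the floor on every array. RNF31 is outside the naming rule and was named after its values were seen.

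Of 9 tested kinase and kinase adaptor genes, none was lower with both hairpins and 1 was higher, namely IKBKE, an IkB kinase-related kinase, with signals of 410, 802 and 669 (1.96-fold and 1.63-fold higher). The 2 IKBKE probe sets went the same way. Of 13 tested inhibitors and deubiquitinases other than the members, CYLD was higher and ITCH lower. CYLD, a deubiquitinase that opposes NF-kB activation, read 846 with shLuc, 1903 with shMMSET#2 and 1481 with shMMSET#4, or 2.25-fold and 1.75-fold higher. Of its 7 probe sets, 6 lay above shLuc with both hairpins, and the exception was a dim one with log2 ratios of -0.08 and 0.72. Not all of the 6 reached 1.5-fold with shMMSET#4. The next in brightness were 1.27-fold and 1.14-fold higher there, and a dim one 1.21-fold, while the rest passed 1.5-fold with both hairpins. ITCH, a ubiquitin ligase that works with A20, had log2 ratios of -0.83 and -0.68, and on the other 5 probe sets its log2 ratios lay between -0.73 and 0.13 for shMMSET#2 and between -1.20 and -0.05 for shMMSET#4. Of 9 tested receptor genes, TLR9, a sensor of unmethylated DNA, was the 1 gene higher with both, at least 1.87-fold and at least 2.25-fold because shLuc was below the floor, and none was lower with both. TLR9 passed the filter for dim genes through the hairpin arrays alone, where it was high. Neither of the 2 tested genes of the CARD-BCL10-MALT1 complex list was called.

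An NF-kB target signature known from myeloma contains several of the members; its 5 other measured genes did not go together. CD74, the invariant chain, read 5093 with shLuc, 6504 with shMMSET#2 and 6385 with shMMSET#4, 1.28-fold and 1.25-fold higher. IL2RG, the common cytokine receptor chain, read 2109, 2075 and 3170, level with shMMSET#2 and just past 1.5-fold higher with shMMSET#4. PLEK, which encodes pleckstrin, was lower with both, 1.53-fold and 3.05-fold, with log2 ratios of -0.92 and -1.80 on its second probe set. MALT1, the paracaspase, was 1.23-fold and 1.21-fold lower, and WNT10A, a Wnt ligand, was 1.09-fold higher and 1.12-fold lower. PLEK was thus the 1 gene of the 5 called with both hairpins.

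Of 22 other tested NF-kB target genes, 2 were lower with both hairpins, 1 was higher and 19 were neither, with median log2 ratios of 0.02 and 0.02. ICAM1, an adhesion molecule, read 2717 with shLuc, 1270 with shMMSET#2 and 1670 with shMMSET#4, or 2.14-fold and 1.63-fold lower. All 3 ICAM1 probe sets lay below shLuc with both, but the dimmer ones were 1.41-fold and 1.47-fold lower with shMMSET#4, short of the threshold. CXCL10, a chemokine also induced by interferon, read 1468, 579 and 437, or 2.54-fold and 3.36-fold lower. CCND1, which encodes cyclin D1, was 1.86-fold and 3.33-fold higher at low signals of 49.7, 92.6 and 166, and it too passed the filter through the hairpin arrays alone. Lower and higher targets thus occurred side by side, as among the members.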

How the data were processed

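RNA of 3 KMS11 samples, 1 per hairpin, was measured on Affymetrix arrays. The deposited intensities are MAS5 signals, per the submitters' processing notes, and the series' design text names GeneSpring; versions and settings are not stated there. The authors had scaled the intensities already: the 2% trimmed mean was 500.1 on every array. The array named in the design text is another of the U133 family, whereas the 54675 probe sets are those of the Plus 2.0 array.

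Leaving out 62 control probe sets, 41091 had 1 symbol, of which 41043 were updated by Entrez identifier (RefSeq, GRCh38.p14). 1801 had several and 11721 were unnamed here. Signals under the pooled 40th percentile (41.2) were set to it, and log2 was taken. The brightest probe set stood for a gene, and 13296 of 19775 genes, those above the array's median on at least 1 array, were tested by size across all genes (1.5-fold). Precision is limited by there being 3 arrays.

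The members and lists were chosen with earlier results of these data known. Named genes are all members, NSD2, the measured signature genes, and up to 4 genes per other list that were called with both hairpins, by the smaller ratio. Alternatives changed the scaling, floor, filter, probe set rule and threshold. The calling step was run on simulated data with planted changes larger than those of the members and with less noise than between the hairpin arrays. That run does not bear on how reliable calls near 1.5-fold are. Python 3.11.15, numpy 2.4.6 and pandas 2.3.3 were used.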

Additional observations from a re-analysis of the deposited data

How the results depend on the processing

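Of the 4 counts, those of genes called with both hairpins were 2 lower and 1 higher among the members, and 7 lower and 6 higher among the pathway genes. With the same median signal they were 0, 1, 1 and 14, beside 5.28% of all tested genes lower and 19.7% higher. The cause of the difference in array medians was not tested. Quantile normalization gave 4 lower pathway genes (background 8.84%), and the 75th percentile filter 3 higher ones of 52 tested (background 10.0%). The mean over probe sets gave 1 lower member (TNFAIP3) and 4 lower pathway genes (background 8.75%). Without _x_at and _s_at probe sets, 1 member of 7 tested was lower (REL) and 2 were higher (NFKBIE and NFKB2). The background was then 13.7% lower and 8.10% higher. Only 7 were tested since RELA and TNFAIP3 then lose every probe set and NFKBIA all but a dim one. At 2-fold there were 0 lower and 0 higher members (background 4.35% and 2.83%) and 1 lower and 0 higher pathway genes. Dropping the floor, raising it to the 60th percentile or dropping the filter kept the counts within 1.5 times those reported. The scaling, floor and probe set alternatives gave 116 member ratios. Of these, 60 were identical to those reported, since neither the floors nor the probe set rule touched them, and say nothing about stability. Of the other 56, 52 moved by less than 0.625 log2 units, the SD between the hairpin arrays. This count does not measure stability either, since the same-median ratios all moved by 1 constant per hairpin, smaller than that SD. REL and TNFAIP3 are in the count under that scaling, although neither was then called with both hairpins. NFKB2 with shMMSET#4 turned from -0.70 to 0.060 with the mean over probe sets and to 0.88 without _x_at and _s_at probe sets, which leaves the dimmer probe sets to set its value; NFKB2 and NFKBIA with shMMSET#2 moved to 1.11 and -0.55 in the latter setting. No replicate could be left out, and no paired analysis was possible because each group holds 1 array.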

Other observations

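Some genes of the pathway lists were at least 2-fold from shLuc with 1 hairpin and within 1.5-fold with the other on their brightest probe sets. They were picked after their values were seen, 11 of 69 tested, and the difference between the hairpins was not tested. The share of all tested genes that meets the same rule is not given, so nothing about the pathway can be read from this count. With shMMSET#4, both lymphotoxin genes were higher: LTB read 6574 in the control, 7536 for shMMSET#2 and 14675 for shMMSET#4, although a dim probe set was 2.64-fold and 2.15-fold lower, and LTA read 198, 218 and 449. The receptor of lymphotoxin, LTBR, was at least 2.38-fold higher with shMMSET#4, with shLuc and shMMSET#2 below the floor, so that it passed the filter for dim genes only where it was high, while a dim probe set of it read 61.7 on the shLuc array and was below the floor on both others. NFKBIZ, which encodes a nuclear IkB protein, read 2268, 2175 and 1045, and NKIRAS2, which encodes a Ras-like protein that binds IkB, read 910, 652 and 346; a nearly as bright NKIRAS2 probe set was lower with both hairpins, 1.72-fold and 2.10-fold. IER3 was 2.01-fold lower and IL6 at least 2.07-fold lower with shMMSET#4, at low signals, and IL6 passed the filter only on the shLuc and shMMSET#2 arrays.

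With shMMSET#2, TLR4, the endotoxin receptor gene, read 84.9, 429 and 92.4 in the same order, and 3 of its 4 probe sets were higher with shMMSET#2, the last lying below the floor throughout. NFKBID, another nuclear IkB gene, read 73.3, 188 and 101, and it passed the filter for dim genes through the hairpin arrays alone, where it was high. Another NFKBID probe set was above the floor only with shMMSET#2, at 88.9. Its dimmest was near level, at 47.6 with shLuc and 51.7 with shMMSET#2, and fell below the floor with shMMSET#4. BCL2L1, which encodes the survival protein BCL-XL, read 1689, 839 and 1338, with its dimmest probe set 1.52-fold and 1.73-fold lower, and TNFRSF1B, a TNF receptor gene, read 711, 352 and 621.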
